A study of Mus musculus with 4 samples.

Results

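The aminoacyl-tRNA synthetase genes of the mouse were examined for Eya1 peaks at their promoters in the embryonic kidney. The set is given by gene symbol, as a list of 36 synthetase genes. Mars1 does not occur under that symbol in the GENCODE M21 annotation, where the gene is called Mars, and was dropped, which left 35 of 21951 protein-coding genes. Of these 35 genes, 19 encode cytosolic enzymes and 16, whose symbols end in 2, encode mitochondrial enzymes. Eya1 ChIP-seq, the sequencing of DNA recovered by chromatin immunoprecipitation, was done on E13.5 kidneys of Eya1HA-FLAG knockin mice on a mixed background that includes C57BL/6J, with 80 kidneys pooled for each assay and anti-FLAG M2 beads used for the pull-down. The series holds 2 Eya1 ChIP samples, 1 input control and 1 IgG control, all from kidneys that carry the tagged allele. The peak lists of the 2 Eya1 samples were used, and the controls were not analysed here, so the Eya1 calls have no control calls to be read against. Whole kidneys hold several cell types, and a peak list gives no expression level, so the tissue label could not be checked against marker genes. The labels do not say whether the replicates came from separate pools of kidneys.

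Aminoacyl-tRNA synthetases join each amino acid to its own tRNAs and so supply the ribosome with charged tRNA. Most cytosolic and mitochondrial enzymes come from separate nuclear genes, while Gars and Kars each encode both forms. Several cytosolic enzymes are held together in the multisynthetase complex, and many synthetase genes are induced by the transcription factor ATF4 when amino acids run short. Eya1 is a transcriptional coactivator and phosphatase that has no DNA-binding domain of its own, acts through partners such as Six2, and is required for early kidney development.

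An Eya1 peak was listed in at least 1 replicate within 1 kb of an annotated transcription start site (TSS) at 12 of the 35 synthetase genes, and at 4 of these genes an interval was covered by both replicates. The 4 genes were Dars, Eprs and Yars, which encode the cytosolic enzymes for aspartate, for glutamate and proline, and for tyrosine, and Rars2, which encodes the mitochondrial enzyme for arginine. The stretches listed in both replicates are short, because the replicate 2 peaks are narrow, and the sequence of those that lie outside UTRs is printed on the strand of the gene to show which DNA the lists share. They were read from the GRCm38 (mm10) reference. Capitals mark a GC box (GGGCGG or its reverse complement) or a CCAAT box. Dars has a pair of such stretches on the minus strand. The downstream one, chr1:128416926-128417090, lies in an intron of Dars and is printed, and the upstream one, chr1:128417144-128417355, overlaps UTR and coding sequence and is not.
Dars downstream: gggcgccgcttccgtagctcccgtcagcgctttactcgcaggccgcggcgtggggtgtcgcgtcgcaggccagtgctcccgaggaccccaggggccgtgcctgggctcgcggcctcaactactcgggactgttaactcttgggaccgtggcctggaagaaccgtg
The Eprs stretch, chr1:185363375-185363535 on the plus strand, overlaps an annotated exon of Eprs that is neither coding sequence nor UTR.
Eprs: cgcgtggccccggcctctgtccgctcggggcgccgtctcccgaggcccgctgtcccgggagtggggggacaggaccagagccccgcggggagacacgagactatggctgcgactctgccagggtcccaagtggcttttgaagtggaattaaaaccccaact
The Rars2 stretch, chr4:34614699-34614815 on the plus strand, lies upstream of Rars2 and inside an intron of its neighbour Orc3.
Rars2: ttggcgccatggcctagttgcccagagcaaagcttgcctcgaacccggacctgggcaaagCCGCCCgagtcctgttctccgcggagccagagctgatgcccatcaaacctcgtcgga
Yars also has a pair of such stretches, on the plus strand. The upstream one, chr4:129188941-129189192, lies inside an intron of the neighbour S100pbp, and the downstream one, chr4:129190056-129190173, overlaps coding sequence of Yars.
Yars upstream: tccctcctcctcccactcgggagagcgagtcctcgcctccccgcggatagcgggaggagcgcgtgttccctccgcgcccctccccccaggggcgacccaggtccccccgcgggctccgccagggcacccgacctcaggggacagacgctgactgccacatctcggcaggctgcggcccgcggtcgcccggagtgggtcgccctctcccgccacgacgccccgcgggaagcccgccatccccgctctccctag
Yars downstream: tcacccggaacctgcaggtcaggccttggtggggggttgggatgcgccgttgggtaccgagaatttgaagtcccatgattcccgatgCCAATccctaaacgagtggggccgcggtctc
The GC content of these stretches was 64.6% and 69.7% for the upstream and downstream stretches of Dars, 67.7% for Eprs, 63.2% for Rars2, and 76.2% and 61% for the upstream and downstream stretches of Yars.

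The 12 genes with a peak made up 34.3% of the 35 (95% exact Clopper-Pearson interval 19.1 to 52.2), against 23.5% of all protein-coding genes. The interval includes the value of all protein-coding genes. An interval covered by both replicates lay at 4 genes, 11.4% (3.2 to 26.7), against 11.4% of all protein-coding genes. Replicate 1 alone gave 11 synthetase genes, 31.4% (16.9 to 49.3), against 20.2%, and replicate 2 alone gave 5, 14.3% (4.81 to 30.3), against 14.7%. Of the 11 genes called in replicate 1, 4 were also covered by both lists (36.4%), and among all protein-coding genes this share was 56.5%. The 36.4% rests on 11 genes and no interval was computed for it, so the shares cannot be said to differ. The intervals given cover counting error over genes only. Each replicate is 1 library with 1 list, and without read counts in them the depth behind a peak is unknown.

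Among all protein-coding genes the share with an Eya1 peak rose with the CpG level of the promoter, from 0.738% in the lowest bin to 68.7% in the bin from 1, with 63.4% in the last bin, from 1.1, which holds 41 genes, and synthetase promoters are rich in CpG. The CpG level was taken as the observed count of CpG divided by that expected from the C and G content, in 500 bp either side of the reference TSS. Its median was 0.72 over the synthetase genes, from 0.275 at Wars to 1.05 at Mars2, against 0.571 over all protein-coding genes. When each synthetase gene was set beside the other protein-coding genes in its own CpG bin, 0.1 wide, the mean share of those genes with a peak was 34.8%, close to the 34.3% of the synthetases. The same comparison gave 16.3% against 11.4% for both lists, 30.1% against 31.4% for replicate 1, and 21.1% against 14.3% for replicate 2. All 4 values at the same CpG level lie inside the intervals of the synthetase shares. With promoters grouped by GC content in place of CpG level, the comparison share for either list was 25%, which is also inside the interval.

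**Figure D1:**
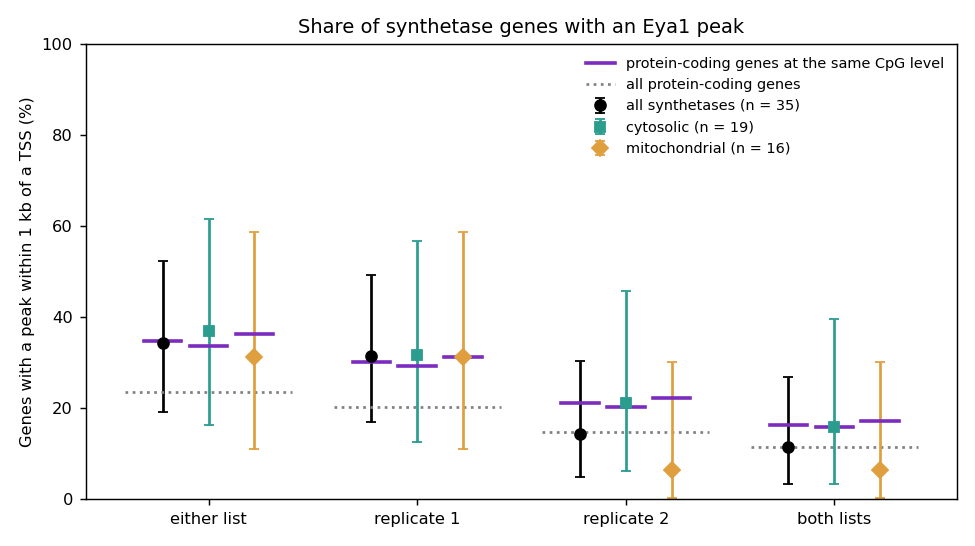
Share of synthetase genes with an Eya1 peak within 1 kb of a TSS (%), for 35 genes in all (black circles), 19 cytosolic (green squares) and 16 mitochondrial (orange diamonds), with 95% exact binomial intervals. Purple bars give the share among protein-coding genes at the same CpG level and dotted lines that among all protein-coding genes; every purple bar and dotted line lies within the interval drawn on it.

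Within the synthetase set, genes with a peak had a higher median CpG level than genes without, 0.793 (0.65 to 0.948) against 0.646 (0.275 to 1.05). Below a level of 0.6 none of 7 genes had a peak, which were Wars, Cars, Hars2, Iars, Lars2, Sars and Tars2. From 0.6 to 0.7 the gene with a peak was Farsa, 1 of 8, where 25.5% of protein-coding genes had one. From 0.7 to 0.8, 6 of 13 genes had a peak against 39%, and from 0.8 to 0.9 all of Ears2, Nars and Vars had one against 51.1%. Eprs and Gars, but not Yars2, had a peak between 0.9 and 1, where the share was 62.3%. Mars2, the gene with the highest level, had no peak in a bin where 68.7% of protein-coding genes had one. The low value of Wars was measured at its reference TSS, which lies inside the gene and downstream of its first annotated start.

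**Figure D2:**
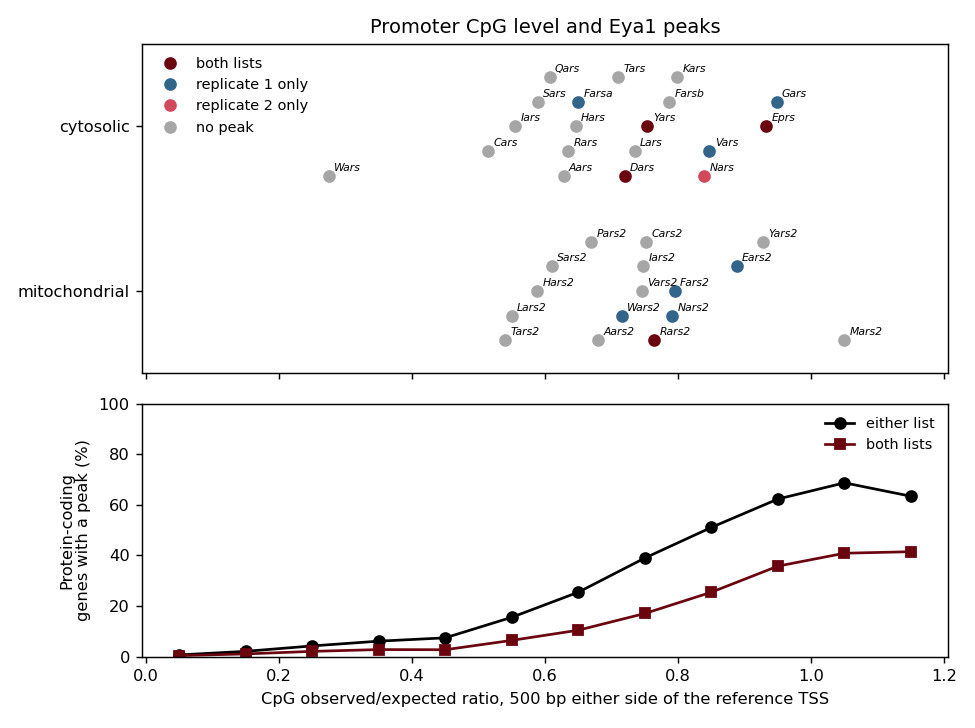
Upper panel, CpG observed/expected ratio of each of the 35 synthetase promoters (x axis), cytosolic above and mitochondrial below, coloured by the lists that hold a peak; vertical offsets only separate the names. Lower panel, share of protein-coding genes with a peak (%) in each bin of the same ratio, in either list (black) and in both (dark red); the share in either list rises from 0.738% in the lowest bin to 68.7% in the bin from 1 and is 63.4% in the last bin, and no synthetase gene below 0.6 has a peak.

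The difference between cytosolic and mitochondrial synthetase genes was within the counting error. A peak was listed at 7 of 19 cytosolic genes (36.8%, 16.3 to 61.6) and at 5 of 16 mitochondrial genes (31.2%, 11 to 58.7), a difference of 5.59 percentage points with a 95% Newcombe interval from -24.5 to 33.5. At the same CpG level the shares of protein-coding genes were 33.7% for the cytosolic and 36.2% for the mitochondrial genes. In replicate 1 the groups were alike in value, with 6 of 19 (31.6%) and 5 of 16 (31.2%), while in replicate 2 a peak was listed at 4 cytosolic genes (21.1%) and at 1 mitochondrial gene (6.25%). The replicate 2 difference was 14.8 points, from -10.6 to 37.7. Both lists covered an interval at 3 cytosolic genes (15.8%) and 1 mitochondrial gene (6.25%), a difference of 9.54 points, from -14.8 to 31.9, where the shares at the same CpG level were 15.8% and 17.1%. The intervals include differences in either direction, so these counts cannot say which group is higher. Leaving out Gars and Kars, whose products serve both compartments, gave 6 of 17 cytosolic genes with a peak. This share of 35.3% (14.2 to 61.7) stands against 31.7% at the same CpG level.

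Among the cytosolic genes, Dars and Eprs were the 2 of 7 multisynthetase complex genes in the set with a peak, and both lists covered an interval at each. This share of 28.6% stands against 35.1% in either list and 16.4% in both at the same CpG level, and its interval runs from 3.67 to 71%. Iars, Kars, Lars, Qars and Rars, also of the complex, had none, and nor had Mars, a complex gene that the rule dropped. The 12 free cytosolic genes included 5 with a peak (41.7%, against 32.8% at the same CpG level), namely Yars in both lists, Farsa, Gars and Vars in replicate 1 and Nars in replicate 2. The free genes without a peak were Aars, Cars, Farsb, Hars, Sars, Tars and Wars. Farsa and Farsb encode the subunits of the same phenylalanine enzyme, and a peak was listed at Farsa but not at Farsb. Of the mitochondrial genes, Rars2 was in both lists and Ears2, Fars2, Nars2 and Wars2 in replicate 1. Aars2, Cars2, Hars2, Iars2, Lars2, Mars2, Pars2, Sars2, Tars2, Vars2 and Yars2 had no peak. By the structural classes of the catalytic domain, 5 of 17 class I genes (29.4%) and 6 of 17 class II genes (35.3%) had a peak, against 35.8% and 32.2% at the same CpG level. Eprs, which holds a domain of each class, was not counted in either.

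The replicate 1 peaks at synthetase genes were broad and lay over the start of the gene, whereas those of replicate 2 were narrow and lay to one side of it. Replicate 1 listed 12 peaks at 11 genes, with a median width of 913.5 bp (525 to 2221), against 1100 bp for all replicate 1 peaks within 1 kb of the TSS of a protein-coding gene. Of these 12 peaks, 11 contained the synthetase's own reference TSS. Over the list, 75.5% contained the reference TSS of any protein-coding gene. Replicate 2 listed 7 peaks at 5 genes, with a median width of 161 bp (117 to 252), against 199 bp over its list. None of the 7 contained a reference TSS, which 8.52% of the list did. The midpoint lay downstream of the synthetase's own reference TSS in 9 of 12 peaks of replicate 1 and in 5 of 7 of replicate 2. The other midpoints lay at Ears2, Rars2 and Yars, each with a close neighbour on the opposite strand. Over the lists, 88.1% and 88.2% of midpoints lay downstream, but of the nearest reference TSS of any protein-coding gene. The member counts and list shares are therefore not alike in measure. No synthetase gene had a further peak within its body beyond 1 kb of a TSS.

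**Figure D3:**
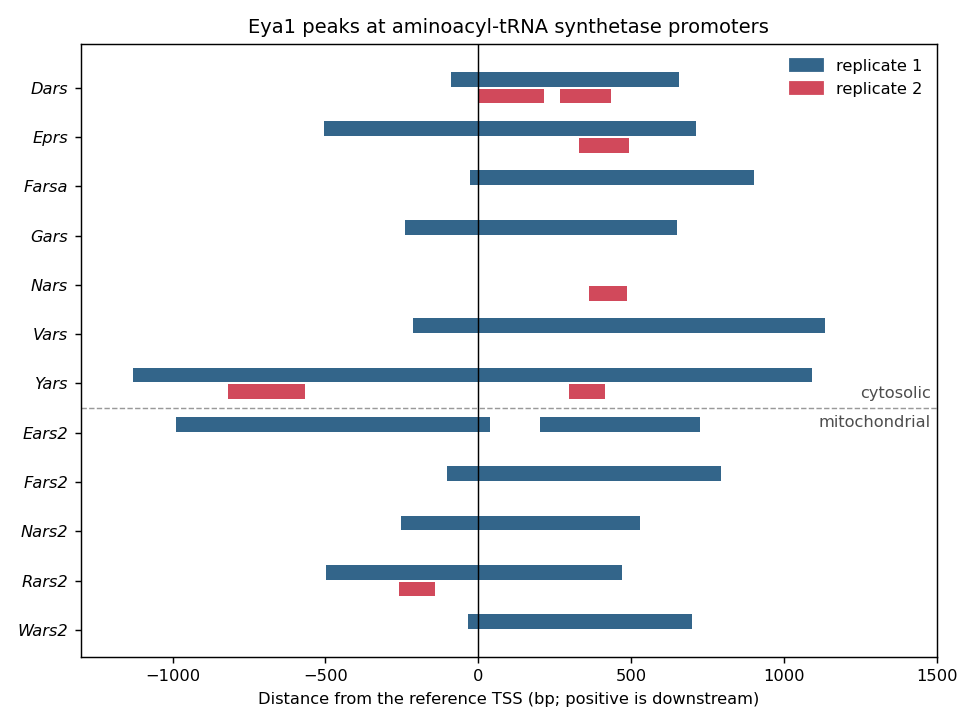
Eya1 peaks at the 12 synthetase genes with a peak, drawn to scale by distance in bp from the reference TSS (vertical line; positive is downstream along the gene), with replicate 1 in blue and replicate 2 in red. Of the 7 replicate 2 peaks, 6 lie inside a replicate 1 peak; the remaining one, at Nars, has none above it.

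At the genes in both lists, every replicate 2 peak lay inside the replicate 1 peak. At Dars the replicate 1 peak, chr1:128416704-128417448, was 745 bp wide and ran from -89 to 655 bp of the reference TSS, and it held replicate 2 peaks of 212 bp, chr1:128417144-128417355, and of 165 bp. At Eprs the replicate 1 peak was 1216 bp wide, chr1:185362541-185363756, and the replicate 2 peak of 161 bp began 331 bp downstream of the TSS. The wide Eprs peak also contained a TSS of the transcript 4930532G15Rik. Yars had the widest peak of the set, 2221 bp at chr4:129188630-129190850, which lay at the 94.2 percentile of widths in its list and spanned -1130 to 1090 bp. It held replicate 2 peaks of 252 bp upstream and 118 bp downstream of the TSS. At Rars2 a replicate 1 peak of 969 bp, chr4:34614460-34615428, held a replicate 2 peak of 117 bp that ended 142 bp upstream of the TSS. The replicate 1 peaks at Eprs, Rars2 and Yars thus covered starts of other genes as well as of the synthetase.

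At the cytosolic genes listed in replicate 1 alone, the Farsa peak was 930 bp wide, chr8:84856961-84857890, and the Gars peak 890 bp, chr6:55037769-55038658. The Vars peak, for the valine enzyme, was wider, 1349 bp at chr17:35000773-35002121, and reached 1134 bp into the gene. Nars, for asparagine, was the gene listed in replicate 2 alone, with a peak of 124 bp that ran from 362 to 485 bp downstream of its reference TSS, where the nearest replicate 1 peak was 12.8 kb from a TSS of Nars.

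At the mitochondrial genes listed in replicate 1 alone, Ears2, for glutamate, had a peak of 1027 bp over its start, chr7:122067225-122068251, and one of 525 bp downstream, chr7:122066537-122067061. The Fars2 peak, for phenylalanine, was 897 bp wide at chr13:36117311-36118207. The Nars2 peak was 783 bp wide at chr7:96951253-96952035 and also covered a start of C230038L03Rik. The Wars2 peak, for tryptophan, was 735 bp wide at chr3:99141034-99141768. Each of these peaks but the smaller one of Ears2 contained the reference TSS. Below the median width of its list, a replicate 1 peak at a synthetase gene overlapped a replicate 2 peak in 2 of 9 cases (list 44.7%), and at or above it in 2 of 3 cases (list 66.5%).

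Several synthetase genes share a promoter with a gene on the opposite strand, and a peak there lies at both genes. Such a neighbour, a protein-coding gene with a TSS within 1 kb, was found at 9 of the 35 genes. Of the 9, 4 had a peak, against 45.8% of all protein-coding genes with such a neighbour, and 8 of the other 26 had one, against 20.4%. Neither comparison share is matched for CpG level, whose median was 0.72 over the synthetase genes and 0.571 over all protein-coding genes. The reference starts of Rars2 and Orc3, a subunit of the origin recognition complex, are 13 bp apart, those of Ears2 and Ubfd1 88 bp, those of Fars2 and Lyrm4 114 bp, and those of Yars and S100pbp 218 bp. The neighbour was called together with the synthetase in each of these pairs. The pairs without a peak were Hars with Hars2, 197 bp apart, Kars with Terf2ip, 75 bp, Sars2 with Mrps12, 182 bp, and Wars with Wdr25, whose closest starts are 98 bp apart. Hars and Hars2, the cytosolic and mitochondrial histidine enzymes, thus share 1 promoter region that was in neither list. Of the mitochondrial genes, 3 of 5 with a shared promoter and 2 of 11 others had a peak, and of the cytosolic genes 1 of 4 and 6 of 15.

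At the 23 genes without a promoter peak, the nearest listed peak was 1.64 kb to 595 kb from a TSS. Qars, for glutamine, came nearest, and that peak lay past the end of Qars, at the promoter of Qrich1. The distance for Qars is from an annotated start inside the gene, not from its reference TSS. Through this peak Qars is the gene added in the 2 kb setting described below. The next were Cars2 with 5.27 kb, at Ing1, Lars with 12.7 kb, at Rbm27, and Cars with 15.9 kb, at Nap1l4. The nearest peak to Iars2, 33.1 kb away, was the Eprs peak itself. Tars, for threonine, was farthest from any peak, with 595 kb, followed by Iars with 340 kb and Pars2 with 259 kb. Mars, the gene listed as Mars1, had no peak within 1 kb either, although its CpG level of 0.922 lies in the bin where 62.3% of protein-coding genes had one; its nearest peak was 6.02 kb away at Ddit3.

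Short motifs were searched on both strands from 250 bp upstream to 50 bp downstream of the reference TSS, and a match is a description of letters, not of a bound site. The C/EBP-ATF response element (CARE, TGATGNAA), through which ATF4 acts, was found at 5 synthetase genes, Aars, Cars, Gars, Iars and Tars, all of them cytosolic, which is 14.3% against 3.77% of all protein-coding promoters and 1.89% at the same CpG level. Of these 5 genes Gars had an Eya1 peak, and 9.67% of all protein-coding genes with a CARE had one. The sites upstream of Aars, Gars and Tars are shown with the CARE in capitals, on the strand of the gene, to show the element at the genes with and without a peak. They lie at chr8:111033722-111033745 and chr8:111033843-111033866 for Aars, chr6:55037963-55037986 for Gars and chr15:11399666-11399681 on the minus strand for Tars.
Aars distal: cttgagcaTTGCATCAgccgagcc
Aars proximal: gggtcactTTTCATCAgagcgctc
Gars: ctgcgctaTTTCATCAtgcaccgg
Tars: gagtcccgTTGCATCA
The Gars element starts 36 bp upstream of the TSS, inside the replicate 1 peak. The E-box CACGTG was found at 4 cytosolic genes, Aars, Farsb, Iars and Tars (11.4%, against 7.76% of all promoters and 10.5% at the same CpG level). None of the 4 had a peak, and 30.8% of all protein-coding genes with an E-box had one.

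The motif of NRF1 (GCATGCGC), a factor known for controlling nuclear genes of mitochondrial proteins, was found at 3 synthetase genes, Rars2, Vars2 and Wars2, all mitochondrial, which is 8.57% against 3.76% of all protein-coding promoters and 5.4% at the same CpG level. Rars2 and Wars2 had an Eya1 peak and Vars2 had none, and 38.3% of all protein-coding genes with the motif had one. The sites lie at chr4:34614898-34614921 for Rars2, chr3:99141018-99141041 for Wars2 and, on the minus strand, chr17:35667623-35667646 and chr17:35667597-35667620 for Vars2, and are shown with the motif in capitals to set the called beside the uncalled promoter.
Rars2: ccccgtgtGCATGCGCactccaca
Wars2: gaggacagGCGCATGCgtagtaag
Vars2 distal: tcttttacGCATGCGCctgcgtgt
Vars2 proximal: ccgcccacGCATGCGCgcgcacct
The Rars2 motif starts 51 bp upstream of the TSS, inside the replicate 1 peak and outside the replicate 2 peak. The Wars2 motif ends 35 bp upstream of the TSS, just outside the replicate 1 peak, which begins at -34 bp.

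The ETS motif CCGGAAG stood at 15 of the 35 genes (42.9%), against 11.2% of all protein-coding promoters and 16.7% at the same CpG level. It was present at 5 of 12 genes with a peak and 10 of 23 without, so called and uncalled synthetase genes held it at like shares. A GC box stood at 21 genes (60%), which was 10 of 12 with a peak and 11 of 23 without, against 45.3% of all promoters and 66.4% at the same CpG level. The CCAAT box stood at 12 genes (34.3%, all promoters 38.6%), at 2 of 12 with a peak and 10 of 23 without. Of all protein-coding genes with the motif, a peak was listed at 39.2% for ETS, 36.2% for the GC box and 22.6% for the CCAAT box. Whether these motifs go with a peak apart from CpG level was not tested. The YY1 motif AGATGGCG was found at 4 genes, Aars2, Farsa, Wars2 and Yars2 (11.4%, all promoters 2.42%), of which Farsa and Wars2 had a peak, and 51.8% of all protein-coding genes with this motif had one. The cAMP response element TGACGTCA was found at none, and at 2.51% of all promoters.

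The RE1 element of the repressor REST, a motif of 17 bp searched with up to 2 mismatches, occurred in 1 of the 19 peaks at synthetase genes, the replicate 1 peak of Fars2. Over the lists it occurred in 14.7% of replicate 1 and 6.77% of replicate 2 peaks within 1 kb of the TSS of a protein-coding gene. These shares are not adjusted for peak width, which differs between the lists. The match, chr13:36117666-36117682 on the minus strand, lies 254 to 270 bp downstream of the Fars2 reference TSS. Capitals mark the bases that fit the element, also at positions where it allows either of 2 bases. Positions where any base is allowed are in small letters.
Fars2: ggCAGCGCCaaAGACAG

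Other genes of tRNA charging and its surroundings were listed at a like share. Of 33 such genes, 12 had a peak (36.4%, 20.4 to 54.9), against 38.5% at the same CpG level, and both lists covered an interval at 5 (15.2%), against 18.1% at the same CpG level. The genes in both lists were Eif2ak4, the kinase that senses uncharged tRNA, Atf4, the transcription factor downstream of it, and the elongation factor genes Eef1a1, Eef1g and Eef2. The Eif2ak4 promoter had a replicate 1 peak of 860 bp and a replicate 2 peak of 135 bp, and Atf4 a replicate 1 peak of 2094 bp that held replicate 2 peaks of 303 and 208 bp. Ddit3, induced in the same response, was in replicate 1 alone, while Asns and Chac1, also ATF4 targets, had no peak. The multisynthetase scaffold genes gave Aimp1 in replicate 1, Eef1e1 in replicate 2 and Aimp2 in neither. Tarsl2, a further synthetase gene, had no peak, nor had Gatb and Qrsl1, which with Gatc (replicate 1) encode the mitochondrial amidotransferase. None of Mtfmt, Pstk, Sepsecs, Trnt1, Elac1 and Elac2 had one, and of the 6 proofreading and peptidyl-tRNA genes only Aarsd1 did, in replicate 1.

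Beside other gene families of translation, the synthetases lay at the low end of the shares. A peak was listed at 54 of 83 cytosolic ribosomal protein genes (65.1%, 53.8 to 75.2), whose interval lies above that of the synthetases and above the 43.4% at their CpG level. Elongation factor genes, which belong to the 33 above, gave 5 of 9 (55.6%, 21.2 to 86.3; 39.8% at the same CpG level). The initiation factor group took all genes whose symbol is Eif followed by a digit. It thus also holds genes of other function, such as the kinase gene Eif2ak4, which is among the 33 above as well. This group gave 26 of 55 (47.3%, 33.7 to 61.2, with 45.2% at the same CpG level). Mitochondrial ribosomal protein genes gave 30 of 78 (38.5%, 27.7 to 50.2, with 37.9%). The intervals of these families overlap that of the synthetases. For both lists the shares were 37.3% for cytosolic ribosomal proteins (21.4% at the same CpG level), 33.3% for elongation factors (18.6%), 32.7% for initiation factors (23.2%) and 14.1% for mitochondrial ribosomal proteins (17.8%), against 11.4% for the synthetases (16.3%).

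**Figure D4:**
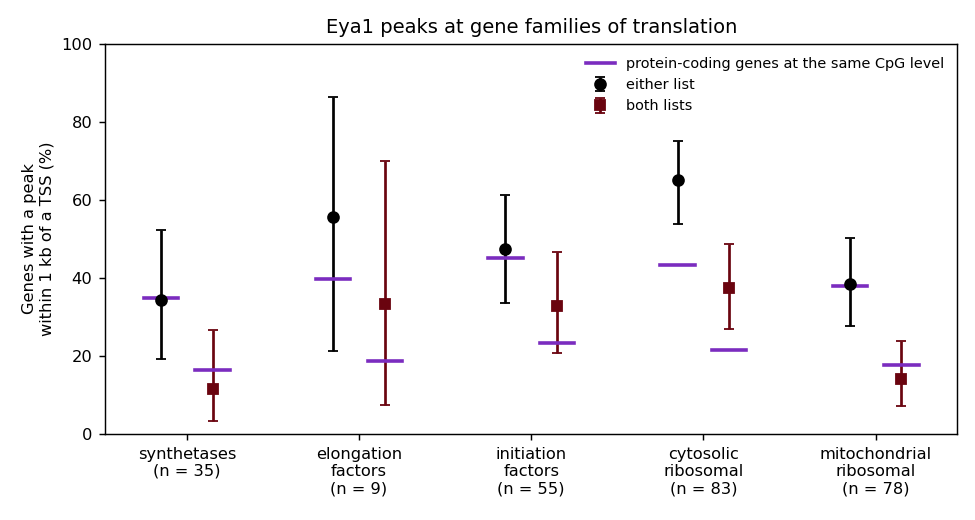
Share of genes with an Eya1 peak within 1 kb of a TSS (%) in either list (black circles) and in both lists (dark red squares) for the 35 synthetase genes and 4 other families of translation, with 95% exact binomial intervals; purple bars give the share among protein-coding genes at the same CpG level. The cytosolic ribosomal protein genes, with 65.1% in either list, are the family whose intervals lie above their purple bars. The initiation factor group holds all genes with an Eif symbol, also the kinase gene Eif2ak4.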

How the data were processed

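Per the labels and the study's methods, the authors aligned reads to mm10, ran MACS with the input or the IgG sample as control, and varied its p-value cutoff. The paper carried forward the peaks common to the input and the IgG calls, and that set was not used here. The methods name Bowtie as the aligner and the submitters' processing notes name HISAT2. Which cutoff and which control stand behind each list is not given in the sources used here. The deposited lists, 1 for each Eya1 replicate, hold positions alone (chromosome, start and end), with no score, signal or count, so the depth is unknown and peak width is the only stricter threshold. Replicate 1 holds 4277 peaks with a median width of 1069 bp and replicate 2 holds 4175 with a median of 188 bp.

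A gene was called where a peak lay within 1 kb of any of its TSSs in GENCODE M21, and called in both lists where an interval covered by both (1 bp or more) did. The reference TSS was that of the APPRIS principal coding transcript. CpG levels and motifs were read from GRCm38.p6, and positions are printed 1-based. Intervals on shares are exact Clopper-Pearson and those on differences Newcombe intervals, at 95%. Groups and replicate numbers came from the sample titles. No test was run, since genes are not replicates and the members and lists were chosen with earlier results of these data known. All listed genes are named with their calls, with positions for members with a peak, and of the other pathway genes those in both lists are described with widths. The genome position of the Nars peak and 1 gene of the pathway list are not reported here. Python 3.11.15, numpy 2.4.6, scipy 1.17.1, statsmodels 0.14.6 and matplotlib 3.10.9 were used. The calls were tested on simulated data, and bedtools 2.31.1 gave the same 4444 and 3234 genes.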

Additional observations from a re-analysis of the deposited data

How the results depend on the processing

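Of 222 values computed for 41 results under other settings, 177 kept within their bounds and 45 moved. Counts of genes with a peak were held to a ratio to the main value, and shares and differences to a 95% interval. The intervals on differences are wide, -24.5 to 33.5 points for cytosolic minus mitochondrial in either list. No difference left its interval, so a kept difference need not be alike in value. Keeping only peaks as wide as the median of their list or wider left 4 synthetase genes in either list, 1 in both, 3 in replicate 1 and 2 in replicate 2, of which 4 in either list and 1 in both were cytosolic and 0 in either were mitochondrial. Requiring a peak to contain a TSS left 0 of 35 genes in replicate 2. The comparison shares were recomputed under these settings too. With the wide peaks, the synthetase share minus that at the same CpG level was -9.63 points in either list and -4.31 in both. It was -7.23 in replicate 1 and -6.68 in replicate 2. Where a peak had to contain a TSS it was -7.13 in replicate 2, against -6.82 in the main setting. Without shared promoters, 2 of 11 mitochondrial genes stayed in either list and 0 in both. Of all protein-coding genes with no opposite-strand neighbour, 20.4% were in either list and 9.85% in both, not matched for CpG level. Leaving out 1 replicate at a time gave 5 to 11 genes in either list, 4 to 6 cytosolic and 1 to 5 mitochondrial, the lower value in each case without replicate 1.

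The share at the same CpG level in either list was 36.5% with CpG in the 300 bp promoter, 25% with GC content, 35.6% with autosomal genes and 38.5% with the same number of TSSs as well. For both lists it was 17.6%, 11.3% and 18.3% with the promoter window, GC content and TSS number, for replicate 1 31.4%, 21.6% and 33.3%, and for replicate 2 22.7%, 14.8% and 23.8%. The cause was not tested. The synthetase share minus that share ranged from -9.63 to 9.24 points in either list. The cytosolic minus mitochondrial difference in either list, 5.59 points, was 21.8 without shared promoters, 21.1 with the wide peaks, 10.9 within 2 kb, 14.8 without replicate 1, and 0.329 where a peak had to contain a TSS or replicate 2 was left out. That in replicate 1, 0.329 points, became -1.84 without Gars and Kars and -1.25 with Mars added, a setting chosen after seeing the data. Within 500 bp either side of the TSS the CARE was found at 11 synthetase genes (31.4%, all promoters 10.8%). With up to 3 mismatches an RE1 was found in 8 of their 19 peaks, against 69% and 25.5% of the replicate 1 and 2 promoter peaks. With at most 1 mismatch it was found in 0 of the 19, against 2.71% and 3.34%. No paired analysis was possible because the result comes from no test and each replicate is 1 list. The counts are limited by 35 genes and 2 libraries, and peaks too weak for these lists cannot be told from absent ones.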
